A study of Mus musculus with 46 samples.

Results

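The genes of MHC class II antigen presentation considered here were H2-Aa, H2-Ab1, H2-Eb1, H2-DMa, Cd74 and Ciita. They were taken as every probe set that the platform annotation assigned to one of these symbols and to no other, which gave 10 probe sets for 6 genes, of 20380 probe sets with 1 symbol for 12393 genes on the Affymetrix MOE430A array. The study compared hearts of MRL/MpJ mice (MRL in the labels), a strain known for unusually complete closure of ear wounds, with hearts of C57BL/6J mice (C57 in the labels), a common laboratory strain. All mice were male and 15 to 20 weeks old, and hearts were taken on day 1 or day 5 after a suture had closed the left coronary artery, or on day 0 from healthy mice without surgery. From each left ventricle a biopsy punch separated the infarct with its border (at day 0, the anterior and apical wall where the infarct would lie) from the remaining, noninfarct wall. This gave 12 groups: MRL and C57 at days 0, 1 and 5, each with infarct and noninfarct tissue, 46 arrays in all, of which the C57 day 0 groups hold 3 each and every other group 4. The labels call the arrays of a group biological replicates, without tying infarct to noninfarct tissue of a heart. No sham operation is named, so at days 1 and 5 surgery and infarction cannot be told apart.

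MHC class II molecules are pairs of an alpha and a beta chain that carry peptides from engulfed material to the surface of macrophages, dendritic cells and B lymphocytes, where CD4-positive T cells read them. Cd74, the invariant chain, guides the pair through the cell and keeps the groove closed, H2-DMa is a chain of the H2-DM complex that exchanges the last piece of the invariant chain for peptide, and Ciita is the coactivator that drives transcription of the whole set, on promoters held by RFX, CREB and NF-Y factors. In the healthy heart, class II genes are expressed mainly by resident macrophages and dendritic cells, and interferon gamma raises them in many cells. C57 mice carry the b haplotype of the H2 complex and MRL mice the k haplotype. In the GRCm38.p6 annotation of RefSeq, H2-Aa (alpha chain of the A molecule) lies at chr17:34282744-34287823, H2-Ab1 (its beta chain) at chr17:34263227-34269418, H2-Eb1 (beta chain of the E molecule) at chr17:34305867-34316674 and H2-DMa at chr17:34119693-34139101. Ciita lies at chr16:10480014-10531064.

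The promoters of H2-Aa and H2-Eb1 are shown because these genes had the largest differences between the strains at day 0 among the tested class II genes and rose together after infarction. Each window runs from 250 bases before to 50 bases from the annotated start site, 5′ to 3′ on the strand of the gene, from RefSeq sequence of GRCm38.p6, which is the C57BL/6J reference and not the MRL allele. Capitals mark CTGATTGG, the core of the class II Y box that NF-Y binds, and one further CCAAT.
H2-Aa, chr17:34287774-34288073, minus strand: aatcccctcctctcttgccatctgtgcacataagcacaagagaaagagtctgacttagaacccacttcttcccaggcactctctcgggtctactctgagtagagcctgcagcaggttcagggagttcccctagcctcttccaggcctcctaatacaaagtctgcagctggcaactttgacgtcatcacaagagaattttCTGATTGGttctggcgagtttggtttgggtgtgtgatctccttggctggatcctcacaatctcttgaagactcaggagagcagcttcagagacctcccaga
H2-Eb1, chr17:34305617-34305916, plus strand: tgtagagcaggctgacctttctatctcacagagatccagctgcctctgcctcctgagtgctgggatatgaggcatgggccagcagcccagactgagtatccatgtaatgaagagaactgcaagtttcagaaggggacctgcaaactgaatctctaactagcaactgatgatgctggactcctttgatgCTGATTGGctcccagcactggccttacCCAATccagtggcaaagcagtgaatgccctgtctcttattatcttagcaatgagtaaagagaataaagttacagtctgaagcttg
The first base of CTGATTGG lay at -51 in H2-Aa and at -62 in H2-Eb1, counted from the start site, and the CCAAT of the opposite strand lies within it. H2-Eb1 held another CCAAT at -35. CTGATTGG was in 4.1% of 32851 promoter windows of the same length, CCAAT in 37.4% and CCNNGNAAC, written for the part of the X box that RFX binds, in 15.1%, all on both strands. CCNNGNAAC did not occur in the windows of H2-Aa and H2-Eb1, while 1 of the 2 windows of H2-DMa held it at -231 and, on the opposite strand, at -7. The search took exact letters only, so it does not show that an X box is absent. The windows hold gctggcaac in H2-Aa and actagcaac in H2-Eb1, which differ from CCNNGNAAC in the first letter only. A match in letters is a description and not a measured site.

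Before the class II values, the strain labels were set against the data. There were 45 probe sets called in the same direction between the strains in all 4 comparisons of days 0 and 1, and each day 5 array was scored by how many of them lay nearer the MRL than the C57 mean. The library labelled MRL day 5 infarct replicate 3 had 2 of 45 nearer MRL, against 27, 25 and 28 in the other MRL day 5 infarct libraries. The library labelled C57 day 5 noninfarct replicate 3 had 28 nearer MRL, against 1 in each of the other libraries of its group. In the 14 other day 5 arrays, between 25 and 44 of 45 lay nearer their own strain. These libraries also correlated least with the rest of their groups among all 46 arrays (Pearson r of 0.889 and 0.905 over probe sets, with the highest array at 0.994). A class I probe set shows the same: H2-D1 (1450170_x_at), a classical class I heavy chain, had log2 intensities of 10.72, 10.83, 4.79 and 11.02 in MRL day 5 infarct and 4.97, 4.83, 10.62 and 5.2 in C57 day 5 noninfarct. Their tissue markers lay apart as well. Summed ventricular cardiomyocyte markers were 161000 in the library labelled MRL day 5 infarct replicate 3, against 46700 to 77900 in the rest of its group. In the library labelled C57 day 5 noninfarct replicate 3 they were 79900, against 145000 to 171000. The region labels of these libraries are thus in doubt too, and whether the 2 were exchanged was not tested. The labels were kept, and day 5 results are also given without these 2 libraries, one in infarct and the other in noninfarct tissue. A difference between groups that hold neither keeps its size, and only its error and adjusted p change.

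**Figure D1:**
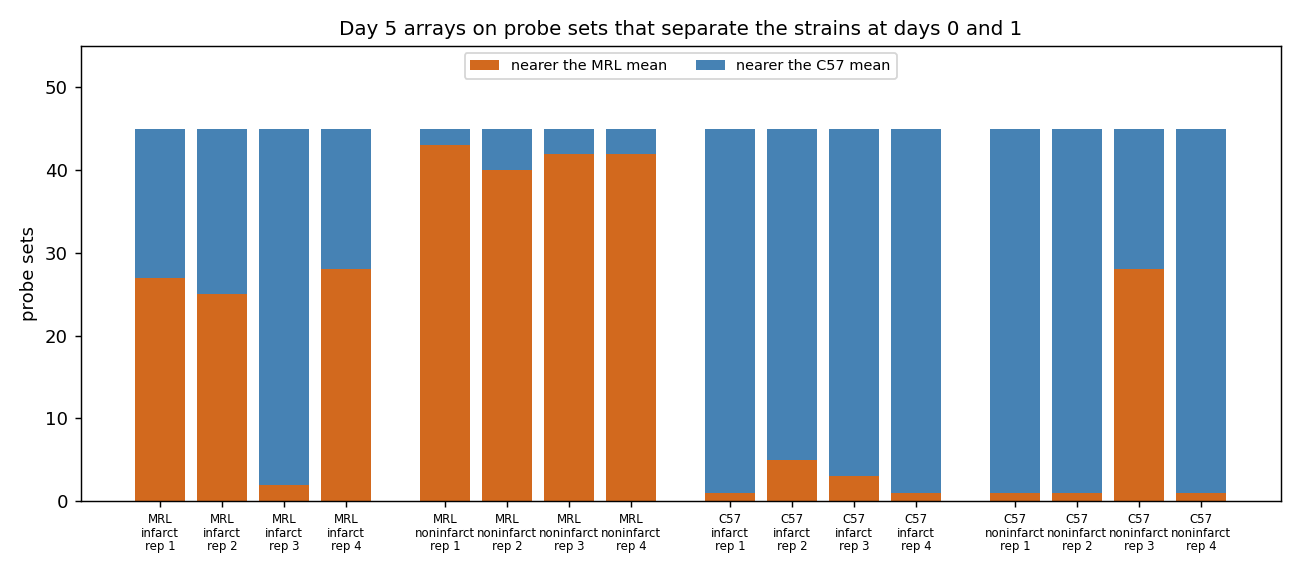
Each bar is a day 5 array, with the number of the 45 strain-separating probe sets (vertical axis) nearer the MRL mean in orange and nearer the C57 mean in blue. The library labelled MRL infarct replicate 3 has 2 nearer MRL, and the library labelled C57 noninfarct replicate 3 has 28.

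All values below are log2 of the deposited intensity, normalised by the authors with GCRMA. A probe set was tested if it lay above the median of its array (log2 4.22 to 4.48) in at least 3 arrays of a fit, which 6 of the 10 probe sets of 4 genes did: those of H2-Aa (1435290_x_at and 1452431_s_at), H2-Eb1 (1417025_at), Cd74 (1425519_a_at) and 1450648_s_at and 1451721_a_at of H2-Ab1. H2-Ab1 (1450648_s_at) and Cd74, whose gene lies at chr18:60803849-60812652 of GRCm38.p6, were above it in all 46 arrays, H2-Eb1 in 41 (19 MRL, 22 C57) and H2-Aa (1435290_x_at) in 40 (18 MRL, 22 C57). The filter was thus passed more often in C57 for these genes, and the means of MRL at day 0 for H2-Aa and H2-Eb1 lay at or under the array median, where the size of a fold is not exact. For counts, each gene was taken by its brightest tested probe set, 1435290_x_at for H2-Aa and 1450648_s_at for H2-Ab1.

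H2-DMa, the peptide exchange chain, lay above the array median in 1 array, and Ciita, the coactivator, in 0 arrays with both of its probe sets. Group means of H2-DMa (1422527_at) were 1.80 to 1.95 in 9 of 12 groups. They were 2.42 in MRL day 5 infarct (2.88, 1.83, 1.78 and 3.19), 3.13 in C57 day 5 infarct (1.84, 3.57, 2.54 and 4.59) and 2.16 in C57 day 5 noninfarct, all of which overlap the other groups. Ciita stayed between 3.19 and 3.29 (1421211_a_at) and between 2.12 and 2.33 (1421210_at) over the group means. The H2-Ab1 probe set 1425477_x_at lay above the array median in 2 arrays, with group means of 2.26 to 3.69. With no filter on low values H2-DMa was called in C57 infarcts, higher at day 5 than at day 0 (1.28 ± 0.44, adjusted p = 0.039) and than on day 1 (1.18 ± 0.40, adjusted p = 0.034), with overlapping groups and means below the array median. In the same test the dimmer Ciita probe set was lower at day 5 than on day 1 in C57 infarcts by a small step (-0.14 ± 0.05, adjusted p = 0.046). Since nearly all values of both genes lay below the array median, the coactivator was not set against its targets.

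In healthy infarct-site tissue at day 0, before any surgery, the class II genes were lower in MRL than in C57. H2-Aa had 4.67, 4.86, 4.19 and 3.19 in MRL, against 7.48, 7.77 and 8.41 in C57. H2-Eb1 had 4.59, 4.37, 4.14 and 4.15 in MRL, against 6.53, 7.27 and 6.30 in C57. Every MRL library lay below every C57 library for both genes. H2-Aa was 12.6-fold lower in MRL (log2 difference -3.66 ± 0.64 SE, 95% interval -4.99 to -2.32, limma adjusted p = 0.0037), and H2-Eb1 5.24-fold lower (-2.39 ± 0.48, adjusted p = 0.01). Cd74, the invariant chain, had 7.00, 6.85, 6.79 and 6.37 in MRL and 8.03, 8.76 and 9.06 in C57, a difference of -1.86 ± 0.55 that did not pass (adjusted p = 0.16). H2-Ab1 had 4.83, 4.67, 5.15 and 5.36 in MRL and 5.84, 6.36 and 6.85 in C57, a difference of -1.35 ± 0.45 (adjusted p = 0.28). The groups did not overlap for these genes either. The share of all probe sets whose groups do not overlap is not given, so here and below this describes the arrays and is no test. Without the 2 day 5 libraries that go against their labels, which enter the fit's shared spread, Cd74 passed with the same difference (adjusted p = 0.048, against 1.46% called). Of the 4 tested class II genes 2 were called, both lower, against 1.07% of 12834 probe sets called in this comparison and 0.397% called lower, and the median difference was -2.13 over the 4 genes and 0.02 over all probe sets.

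The other H2-Aa probe set, 1452431_s_at, showed less of this. It had 4.59, 4.77, 4.55 and 3.80 in MRL and 4.45, 5.41 and 6.10 in C57 infarct-site tissue at day 0, groups that overlap, with a difference of -0.89 ± 0.70 (adjusted p = 1). With the mean of both probe sets, H2-Aa differed by -2.27 and was no longer called (adjusted p = 0.12). For H2-Ab1 the other tested probe set, 1451721_a_at, differed by -0.35, against -1.35 with 1450648_s_at, and neither was called. Probe sets ending in x_at contain probes that can match other sequences, and the strains differ in the sequence of these genes, so the part of allele sequence in the signal was not tested. The H2-Eb1 call rested on C57 day 0 infarct replicate 2 (-2.11, adjusted p = 0.09 without it).

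**Figure D2:**
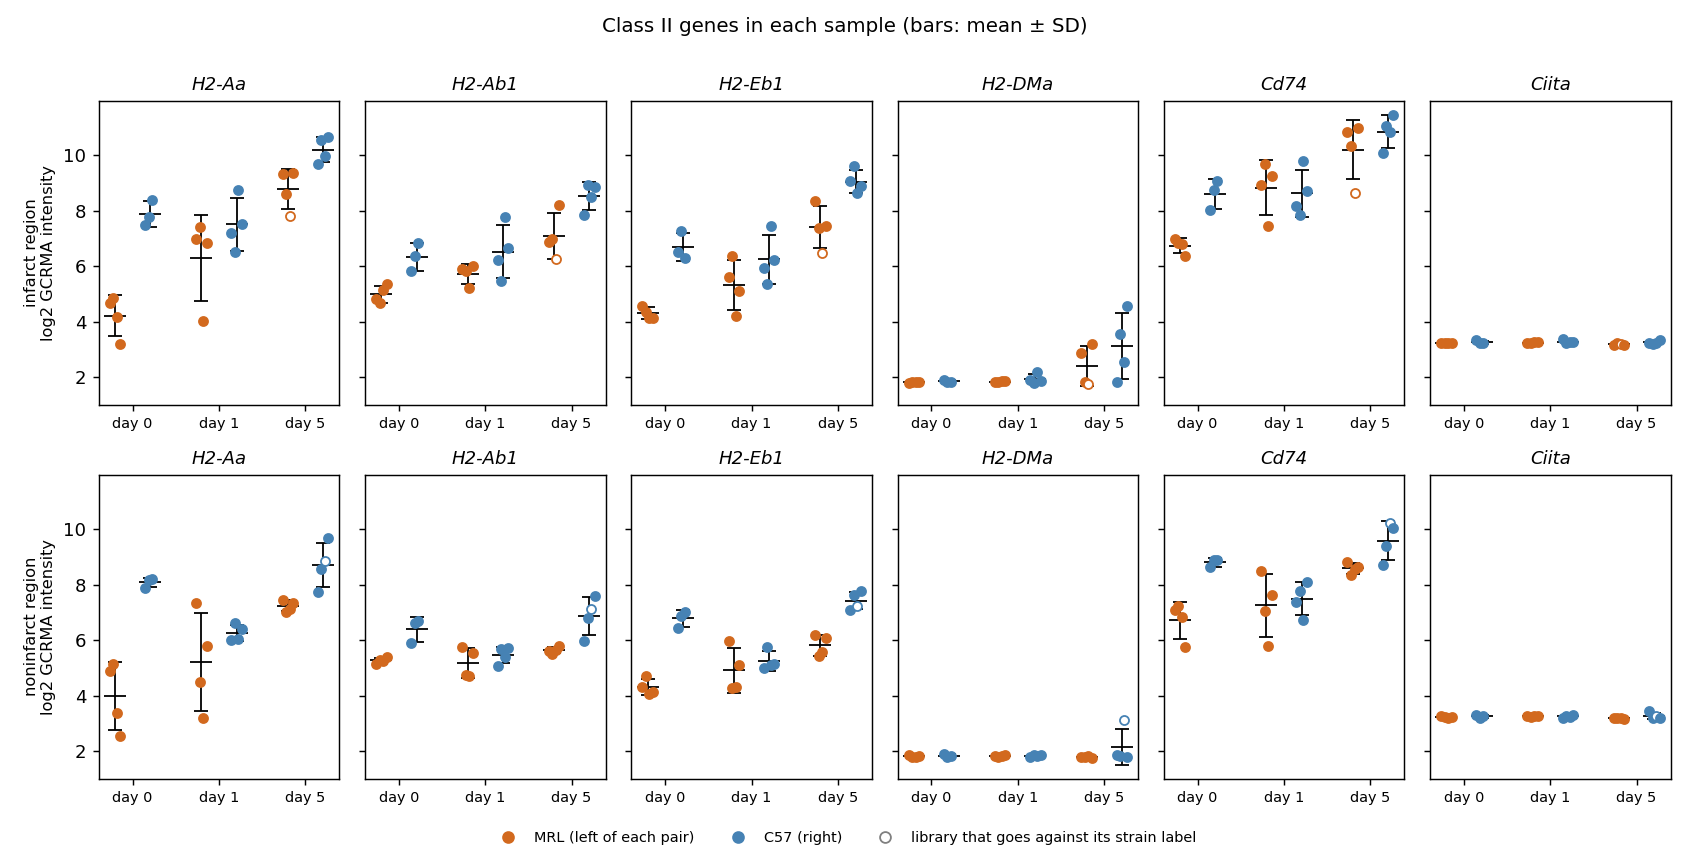
Points are arrays, by gene (columns, brightest probe set), region (rows) and day, with log2 GCRMA intensity on the vertical axis, MRL in orange left of C57 in blue, bars for mean ± SD, and open circles for the 2 libraries that go against their strain label. H2-Aa and H2-Eb1 of MRL lie below all C57 arrays at day 0 in both regions, and H2-DMa and Ciita stay near the bottom of the scale.

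In the healthy noninfarct wall, H2-Aa, H2-Eb1 and Cd74 were lower in MRL than in C57. H2-Aa had 4.90, 5.14, 3.40 and 2.55 in MRL, against 7.90, 8.17 and 8.20 in C57. H2-Eb1 had 4.32, 4.72, 4.07 and 4.14 in MRL, against 6.45, 6.89 and 7.03 in C57. Cd74 had 7.09, 7.23, 6.86 and 5.75 in MRL, against 8.63, 8.89 and 8.91 in C57. No MRL library reached a C57 library for any of these genes. H2-Aa was 17-fold lower in MRL (-4.09 ± 0.69, adjusted p = 0.0014), H2-Eb1 5.57-fold lower (-2.48 ± 0.33, adjusted p = 0.00013) and Cd74 4.22-fold lower (-2.08 ± 0.48, adjusted p = 0.024). H2-Ab1 had 5.14, 5.31, 5.27 and 5.39 in MRL and 5.89, 6.63 and 6.69 in C57, again without overlap, with a difference of -1.12 ± 0.31 (adjusted p = 0.067) that passed without C57 day 0 noninfarct replicate 1 (-1.38, adjusted p = 0.045). The other H2-Aa probe set, 1452431_s_at, differed by -0.98 here (adjusted p = 0.78), and the mean of both gave -2.54 (adjusted p = 0.023). For H2-Ab1, 1451721_a_at differed by -0.87 (adjusted p = 0.16). Of the 4 genes 3 were lower in MRL, against 1.8% of 12344 probe sets called and 0.843% called lower. The Cd74 call was lost on leaving out MRL day 0 noninfarct replicate 3 (-2.12, adjusted p = 0.051) or 4 (-1.75, adjusted p = 0.092), or C57 replicate 1 (-2.17, adjusted p = 0.069), 2 (-2.04, adjusted p = 0.092) or 3 (-2.02, adjusted p = 0.1). Infarct-site and noninfarct tissue may come from the same hearts, so the regions are not independent evidence of each other.

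Markers of the cells that carry class II were summed over each array of healthy tissue. The summed intensity of 15 monocyte and macrophage markers was 932 to 1250 in MRL and 1350 to 1850 in C57 infarct-site tissue, and 1190 to 1370 in MRL and 1440 to 1890 in C57 noninfarct tissue, without overlap in either region. The sum of the 3 general leukocyte markers (Ptprc, Coro1a, Laptm5) was 113 to 178 in MRL and 162 to 234 in C57 infarct-site tissue, which overlap. For comparison, endothelial markers summed to 1880 to 2170 in MRL and 2430 to 2710 in C57 noninfarct tissue, again without overlap. In infarct-site tissue they summed to 2030 to 2460 in MRL and 2110 to 2590 in C57, which overlap. The class II sum was 164 to 219 in MRL and 603 to 1080 in C57 infarct-site tissue and 132 to 265 in MRL and 794 to 1020 in C57 noninfarct tissue. None of the 15 macrophage markers was called in either region (limma, 0 of 15 at an unadjusted p under 0.05 in each), with median log2 differences of -0.15 and -0.20. In tissue that was not sorted, fewer cells of a type and less RNA per cell cannot be told apart, and the part of macrophage number in the strain difference was not tested.

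One day after infarction no class II gene was called between the strains in either region. In infarct tissue H2-Aa had 6.99, 7.42, 4.02 and 6.85 in MRL, against 7.20, 6.53, 8.76 and 7.53 in C57. Cd74 had 8.94, 9.70, 7.44 and 9.27 in MRL, against 8.19, 7.85, 9.79 and 8.73 in C57. The groups overlapped for both genes. The differences were -1.19 for H2-Aa (adjusted p = 0.58), -0.93 for H2-Eb1 (0.55), -0.79 for H2-Ab1 (0.62) and 0.20 for Cd74 (0.99), with 1 of 4 genes at an unadjusted p under 0.05. The direction of H2-Aa depended on the probe set, since 1452431_s_at differed by 0.71 in infarct (adjusted p = 0.88) and by 0.77 in noninfarct tissue (0.61). In noninfarct tissue the differences were -1.06 for H2-Aa (adjusted p = 0.52), -0.34 for H2-Eb1 (0.75), -0.28 for H2-Ab1 (0.8) and -0.25 for Cd74 (0.92), all with overlapping groups and 0 of 4 genes at an unadjusted p under 0.05. There, H2-Eb1 had 5.99, 4.27, 4.31 and 5.12 in MRL and 5.00, 5.78, 5.11 and 5.15 in C57, and Cd74 had 8.51, 7.07, 5.81 and 7.63 in MRL and 7.40, 7.79, 6.74 and 8.10 in C57. Over all probe sets, 0.997% were called in infarct and 2.77% in noninfarct tissue.

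On day 5 the strain difference was called for 2 genes in noninfarct tissue. H2-Eb1 had 6.21, 5.43, 5.59 and 6.10 in MRL, against 7.10, 7.62, 7.25 and 7.77 in C57, and was 3.03-fold lower in MRL (-1.60 ± 0.30, adjusted p = 0.0059). H2-Ab1 had 5.63, 5.52, 5.64 and 5.81 in MRL, against 5.98, 6.82, 7.14 and 7.61 in C57, and was 2.36-fold lower in MRL (-1.24 ± 0.28, adjusted p = 0.029). Neither gene's groups overlapped. The other tested H2-Ab1 probe set, 1451721_a_at, differed by -0.96 and was not called (adjusted p = 0.079). H2-Aa differed by -1.47 (adjusted p = 0.44; -0.40 with 1452431_s_at, adjusted p = 0.86) and Cd74 by -1 (adjusted p = 0.46), against 1.25% of probe sets called and 0.389% called lower. Without the 2 libraries that go against their labels, H2-Eb1 differed by -1.66 (adjusted p = 0.0041), H2-Ab1 by -1.15 (0.037), H2-Aa by -1.42 (0.34) and Cd74 by -0.79 (0.47), against 3.83% called. The H2-Ab1 call was lost without MRL day 5 noninfarct replicate 1 (-1.23, adjusted p = 0.079), 2 (-1.19, 0.09), 3 (-1.23, 0.082) or 4 (-1.29, 0.062) and without C57 replicate 2 (-1.26, 0.067) or 4 (-1, 0.13).

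In day 5 infarct tissue 0 of 4 genes were called by limma, with 3 at an unadjusted p under 0.05, against 0.686% of all probe sets called. H2-Aa had 9.32, 8.61, 7.82 and 9.35 in MRL, against 9.69, 10.54, 9.98 and 10.65 in C57. H2-Eb1 had 8.35, 7.40, 6.47 and 7.47 in MRL, against 9.06, 9.61, 8.64 and 8.88 in C57. For both genes every MRL library lay below every C57 library. H2-Ab1 had 6.87, 6.97, 6.26 and 8.22 in MRL, against 7.85, 8.93, 8.51 and 8.85 in C57, which overlap. The differences were -1.44 ± 0.59 for H2-Aa (adjusted p = 0.68), -1.62 ± 0.44 for H2-Eb1 (0.14), -1.46 ± 0.42 for H2-Ab1 (0.17) and -0.65 for Cd74 (1). With 1452431_s_at the difference of H2-Aa was -0.01, and 0.70 (adjusted p = 0.8) without the 2 libraries. With 1451721_a_at the difference of H2-Ab1 was -1.41 (adjusted p = 0.2). Leaving out the 2 libraries gave -1.12 (0.58), -1.30 (0.18), -1.19 (0.21) and -0.13 (0.98, 95% interval -1.10 to 0.84), against 2.42% called. H2-Ab1 passed without MRL day 5 infarct replicate 4 (-1.84, adjusted p = 0.041).

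**Figure D3:**
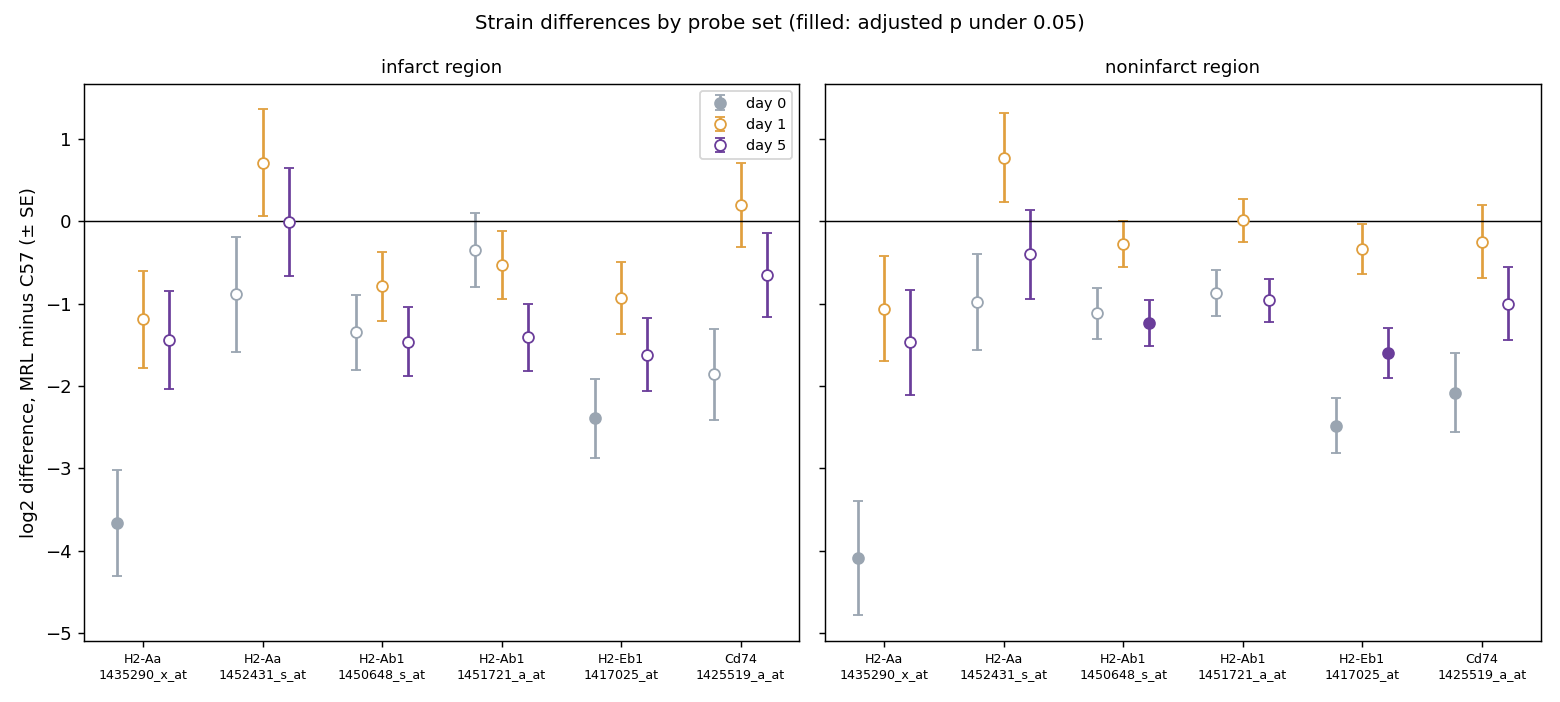
Log2 MRL minus C57 ± SE for the 6 tested probe sets in infarct and noninfarct tissue, at day 0 (grey), day 1 (orange) and day 5 (purple), filled where the adjusted p was under 0.05. H2-Aa (1435290_x_at) reads -3.66 and -4.09 at day 0 and -1.19 and -1.06 at day 1.

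After infarction the class II genes rose in the infarct of both strains by day 5, all 4 of 4. In MRL, H2-Aa was 23.4-fold higher at day 5 than at day 0 (4.55 ± 0.59, adjusted p = 7e-06), Cd74 11-fold (3.46 ± 0.51, adjusted p = 2.7e-05), H2-Eb1 8.64-fold (3.11 ± 0.44, adjusted p = 1.9e-05) and H2-Ab1 4.22-fold (2.08 ± 0.42, adjusted p = 0.00048). In C57, H2-Eb1 was 5.07-fold higher (2.34 ± 0.48, adjusted p = 0.00081), H2-Aa 5.03-fold (2.33 ± 0.64, adjusted p = 0.0065), Cd74 4.73-fold (2.24 ± 0.55, adjusted p = 0.003) and H2-Ab1 4.56-fold (2.19 ± 0.45, adjusted p = 0.00083). The background was large: 46.9% of probe sets were called in MRL and 42.7% in C57. The medians over the 4 genes were 3.28 in MRL and 2.29 in C57. The MRL changes without the 2 libraries were 4.87 for H2-Aa, 3.97 for Cd74, 3.43 for H2-Eb1 and 2.35 for H2-Ab1, and 52.6% were called in MRL and 45.7% in C57. Cd74 had 10.85, 10.33, 8.66 and 11 in MRL day 5 infarct, where the lowest value is the library that goes against its label, and 10.07, 11.05, 10.85 and 11.47 in C57 day 5 infarct. The other probe set of H2-Aa (1452431_s_at) rose as well, by 3.30 in MRL (adjusted p = 0.00041) and 2.41 in C57 (adjusted p = 0.009). So did that of H2-Ab1 (1451721_a_at), by 1.44 in MRL (adjusted p = 0.0073) and 2.51 in C57 (adjusted p = 0.00026).

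On day 1 Cd74 had risen in MRL infarcts, and so had H2-Aa by its brightest probe set. Cd74 was 4.24-fold higher on day 1 than on day 0 (2.09 ± 0.51, adjusted p = 0.0071), and no day 1 library lay as low as a day 0 library. H2-Aa was 4.26-fold higher (2.09 ± 0.59, adjusted p = 0.017), but the groups overlapped, since day 1 replicate 3 had 4.02. The other H2-Aa probe set, 1452431_s_at, changed by 1.22 and was not called (adjusted p = 0.18). The mean of both changed by 1.66 and was not called either (adjusted p = 0.05). H2-Eb1 had 5.61, 6.37, 4.21 and 5.10 on day 1 (1.01, adjusted p = 0.1) and H2-Ab1 5.91, 5.83, 5.21 and 6.01 (0.74, adjusted p = 0.21). The call of 2 of 4 genes stands against 21.5% of all probe sets. Without MRL day 1 infarct replicate 3, H2-Aa changed by 2.86 (adjusted p = 0.00042) and H2-Eb1 passed (1.38, adjusted p = 0.03), while H2-Aa did not pass without MRL day 0 infarct replicate 4 (1.74, adjusted p = 0.064), MRL day 1 infarct replicate 2 (1.73, 0.073) or 4 (1.92, 0.053). In C57 infarcts 0 of 4 genes were called on day 1 (limma, 0 at an unadjusted p under 0.05), against 15.5% of probe sets. The C57 changes were -0.38 for H2-Aa (adjusted p = 0.74), 0.18 for H2-Ab1 (0.83), -0.45 for H2-Eb1 (0.57) and 0.02 for Cd74 (0.99).

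From day 1 to day 5 all 4 genes rose in the infarct of both strains. In C57, H2-Eb1 rose by 2.79 (adjusted p = 8.9e-05), H2-Aa by 2.71 (0.0018), Cd74 by 2.22 (0.0025) and H2-Ab1 by 2.00 (0.0011), against 34.2% of probe sets called. In MRL, H2-Aa rose by 2.46 (adjusted p = 0.0047), H2-Eb1 by 2.10 (0.0017), Cd74 by 1.37 (0.047) and H2-Ab1 by 1.34 (0.021), against 30.1%. The MRL rises were 2.77 without the 2 libraries for H2-Aa, 2.42 for H2-Eb1, 1.89 for Cd74 and 1.61 for H2-Ab1, all called, against 41.4%, and the share in C57 was 38.9%. Without MRL day 1 infarct replicate 3, H2-Aa rose by 1.69 (adjusted p = 0.015), while Cd74 (0.91, adjusted p = 0.18) and H2-Ab1 (1.16, 0.065) no longer passed. The H2-Ab1 call was also lost without MRL day 5 infarct replicate 4 (0.96, adjusted p = 0.094), and that of Cd74 without day 1 replicate 1 (1.40, 0.065) or 4 (1.52, 0.058) or day 5 replicate 1 (1.16, 0.14), 2 (1.33, 0.094) or 4 (1.11, 0.15).

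In the noninfarct wall of C57, 1 class II gene fell on day 1. H2-Eb1 had 5.00, 5.78, 5.11 and 5.15 on day 1, against 6.45, 6.89 and 7.03 on day 0, and was 2.89-fold lower (-1.53 ± 0.33, adjusted p = 0.011). This call was lost without C57 day 0 noninfarct replicate 3 (-1.41, adjusted p = 0.058). H2-Aa had 6.00, 6.63, 6.04 and 6.42 on day 1, against 7.90, 8.17 and 8.20 on day 0 (-1.81, adjusted p = 0.15). The day 1 values also lay below all day 0 values for Cd74 (-1.30, adjusted p = 0.14) and H2-Ab1 (-0.93, adjusted p = 0.095). The call of 1 of 4 genes compares with 3.99% of all probe sets. In MRL 0 of 4 genes were called on day 1 (limma, 0 at an unadjusted p under 0.05, against 0.98% of probe sets), with changes of 1.22 for H2-Aa (adjusted p = 0.45), 0.61 for H2-Eb1 (0.42), 0.52 for Cd74 (0.71) and -0.09 for H2-Ab1 (0.96). The MRL day 1 noninfarct values of H2-Aa spread widely, at 7.35, 4.49, 3.21 and 5.79.

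By day 5, 3 of 4 genes had risen above day 0 in MRL noninfarct tissue and 0 of 4 in C57. In MRL, H2-Aa had 7.46, 7.04, 7.14 and 7.34 and was 9.51-fold higher than at day 0 (3.25 ± 0.64, adjusted p = 0.0011), Cd74 had 8.82, 8.36, 8.56 and 8.66 and was 3.65-fold higher (1.87 ± 0.44, adjusted p = 0.0049), and H2-Eb1 was 2.87-fold higher (1.52 ± 0.30, adjusted p = 0.0013). H2-Ab1 differed by 0.37 (adjusted p = 0.34), although every day 5 value lay above every day 0 value. In MRL 24.2% of probe sets were called. In C57 the changes were 0.79 for Cd74 (adjusted p = 0.24), 0.64 for H2-Eb1 (0.16), 0.62 for H2-Aa (0.53) and 0.49 for H2-Ab1 (0.26), with 0 genes at an unadjusted p under 0.05 and 21.1% of probe sets called. H2-Ab1 passed in C57 without C57 day 5 noninfarct replicate 1 (0.79, adjusted p = 0.028). Leaving out the 2 libraries, 3 of 4 genes were called in MRL, against 34.7% of probe sets, and 0 in C57, where the share was 10.1% and the changes were 0.70 for H2-Eb1 (adjusted p = 0.22), 0.58 for H2-Aa (0.66), 0.58 for Cd74 (0.49) and 0.40 for H2-Ab1 (0.46).

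Between day 1 and day 5 all 4 genes rose in C57 noninfarct tissue, H2-Aa by 2.44 (adjusted p = 0.01), H2-Eb1 by 2.18 (7.7e-05), Cd74 by 2.09 (0.0026) and H2-Ab1 by 1.42 (0.0017), against 22.4% of probe sets. These rises were 2.40, 2.24, 1.88 and 1.34 without the 2 libraries, all called, against 13.4%. In MRL, H2-Aa rose by 2.03 (adjusted p = 0.041), while Cd74 differed by 1.34 (0.053), H2-Eb1 by 0.91 (0.054) and H2-Ab1 by 0.46 (0.3), against 12% of probe sets. The other H2-Aa probe set, 1452431_s_at, differed by 0.95 (adjusted p = 0.25) and the mean of both by 1.49 (0.074), neither called. Without the 2 libraries, 1 of which enters this fit through another group, H2-Aa, Cd74 (adjusted p = 0.035) and H2-Eb1 (adjusted p = 0.041) were called, against 19%. The H2-Aa change was 2.75 (adjusted p = 0.0034) without MRL day 1 noninfarct replicate 1, where Cd74 (1.76, 0.011) and H2-Eb1 (1.27, 0.0035) also passed. It was 1.37 (adjusted p = 0.15) without replicate 3 and was lost, too, without day 1 replicate 2 (1.79, 0.095) or 4 (2.23, 0.059) or day 5 replicate 1 (1.96, 0.091), 2 (2.10, 0.086), 3 (2.07, 0.069) or 4 (2.00, 0.084). Comparisons with the same day share the arrays of that day.

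**Figure D4:**
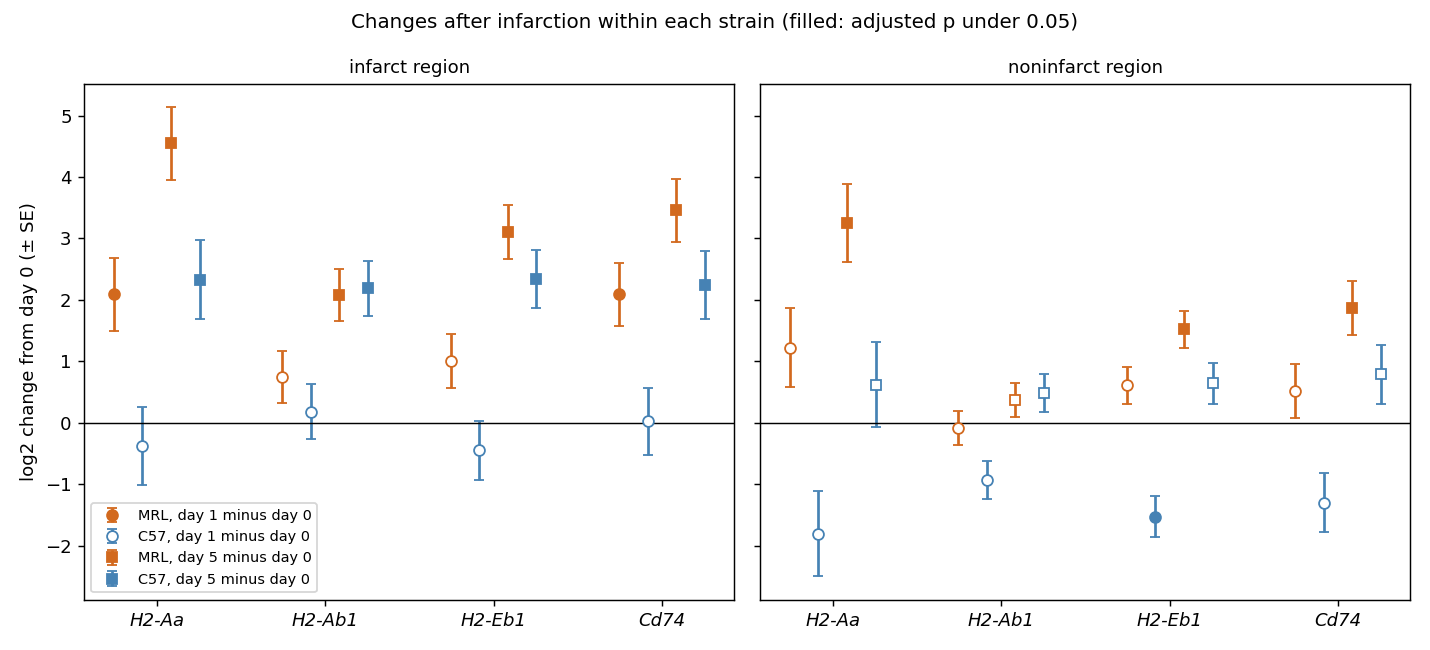
Log2 change ± SE from day 0 of the tested probe sets in infarct and noninfarct tissue, day 1 as circles and day 5 as squares, MRL in orange and C57 in blue, filled where the adjusted p was under 0.05. H2-Aa (1435290_x_at) in MRL infarcts reads 2.09 on day 1 and 4.55 on day 5, and in C57 infarcts -0.38 and 2.33.

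The difference between the changes of the strains was tested directly, and no class II gene was called. In infarct tissue on day 1, the change in MRL exceeded that in C57 by 2.47 ± 0.87 for H2-Aa (95% interval 0.65 to 4.29), 2.06 ± 0.75 for Cd74 (0.50 to 3.62), 1.46 for H2-Eb1 and 0.56 for H2-Ab1, each with an adjusted p of 1. On day 5 it did so by 2.22 for H2-Aa, 1.21 for Cd74, 0.77 for H2-Eb1 and -0.11 for H2-Ab1, each with an adjusted p of 1 (2.54, 1.73, 1.09 and 0.16 without the 2 libraries, with adjusted p of 0.44, 0.53, 0.85 and 1, against 0.577%). In noninfarct tissue on day 1 it was 3.03 ± 0.94 for H2-Aa, 2.14 ± 0.45 for H2-Eb1 (95% interval 1.21 to 3.07, adjusted p = 0.26), 1.82 for Cd74 and 0.85 for H2-Ab1. On day 5 it was 2.62 for H2-Aa, 1.08 for Cd74, 0.88 for H2-Eb1 and -0.11 for H2-Ab1 (2.67, 1.29, 0.82 and -0.03 without the 2 libraries, 0 of 4 called, against 0.0813%). By limma 0 of 4 genes passed in each, while 3, 1, 3 and 1 of 4 had an unadjusted p under 0.05 in these comparisons, in the order given. Very little was called overall: 0.0468% of probe sets in infarct tissue on day 1, 0.156% on day 5, 0.0081% in noninfarct tissue on day 1 and 0.0081% on day 5. A change that was called in MRL and not in C57 is therefore not shown to differ between them, and intervals that leave out 0 for H2-Aa, Cd74 and H2-Eb1 do not show that the changes were alike. All these sizes are from the brightest probe sets. With 1452431_s_at, H2-Aa gave 1.60 and 0.88 in infarct tissue on days 1 and 5, and 1.75 and 0.59 in noninfarct tissue. With 1451721_a_at, H2-Ab1 gave -0.18 and -1.07 in infarct tissue, and 0.88 and -0.10 in noninfarct tissue. None of these was called.

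Between infarct-site and noninfarct tissue of healthy hearts no class II gene was called. At day 0 the infarct-site minus noninfarct differences were 0.23 for H2-Aa, -0.28 for H2-Ab1, 0.00 for H2-Eb1 and 0.02 for Cd74 in MRL and -0.20, -0.05, -0.09 and -0.19 in C57, with 0 of 4 genes called by limma or at an unadjusted p under 0.05 (0.0304% of 13138 probe sets called in MRL and 0% in C57, where 198 had an unadjusted p under 0.05). On day 1, Cd74 was higher in the infarct of MRL (1.58 ± 0.49, adjusted p = 0.039), while H2-Aa differed by 1.11 (0.27), H2-Ab1 by 0.55 (0.34) and H2-Eb1 by 0.40 (0.54), against 9.28% called. In C57 on day 1 0 of 4 were called and 3 had an unadjusted p under 0.05 (1.23 for H2-Aa, 1.13 for Cd74, 1.06 for H2-Ab1 and 1.00 for H2-Eb1), against 7.31%.

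On day 5, 3 of the 4 genes in MRL and 2 in C57 were higher in the infarct than in the noninfarct wall. In MRL, Cd74 was higher by 1.61 ± 0.49 (adjusted p = 0.027), H2-Eb1 by 1.59 ± 0.39 (0.0096) and H2-Ab1 by 1.43 ± 0.37 (0.011), while H2-Aa differed by 1.53 (0.1), against 14% of probe sets called. In C57, H2-Ab1 was higher by 1.65 ± 0.37 (adjusted p = 0.0073) and H2-Eb1 by 1.61 ± 0.39 (0.014), while H2-Aa differed by 1.50 (0.12) and Cd74 by 1.26 (0.091), against 8.53%. Without the 2 libraries all 4 genes were called in MRL (H2-Aa 1.85, adjusted p = 0.034, Cd74 2.12, H2-Eb1 1.91 and H2-Ab1 1.70, against 35.3%) and 3 in C57 (H2-Ab1 1.73, H2-Eb1 1.55 and Cd74 1.47, adjusted p = 0.019, against 32.5%), and on day 1 in C57 H2-Ab1 passed (1.06, adjusted p = 0.041, against 13.9%).

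These differences between regions depended on single libraries. On day 1 in MRL, Cd74 was not called without infarct replicate 2 (1.29, adjusted p = 0.17) or 4 (1.44, 0.1) or noninfarct replicate 2 (1.52, 0.072), 3 (1.10, 0.17) or 4 (1.71, 0.058), and H2-Aa passed without infarct replicate 3 (1.87, 0.049). On day 1 in C57, H2-Ab1 (1.41, adjusted p = 0.01) and H2-Eb1 (1.29, 0.031) passed without infarct replicate 2. On day 5 in MRL, H2-Ab1 was lost without infarct replicate 4 (1.05, adjusted p = 0.082), H2-Eb1 without infarct replicate 1 (1.28, 0.065) and Cd74 without infarct replicate 1 (1.39, 0.12), 2 (1.57, 0.097) or 4 (1.35, 0.12) or noninfarct replicate 2 (1.53, 0.057), 3 (1.59, 0.062) or 4 (1.63, 0.059). On day 5 in C57, H2-Ab1 and H2-Eb1 were lost without infarct replicate 2 (1.52, adjusted p = 0.06, and 1.42, 0.095) or noninfarct replicate 1 (1.35, 0.088, and 1.50, 0.091), and Cd74 passed without infarct replicate 1 (1.52, 0.033) or noninfarct replicate 3 (1.47, 0.035).

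Ordered by level over the 12 groups, each of the 4 genes had its lowest mean in MRL at day 0 and its highest in the C57 day 5 infarct. For Cd74 the means ran from 6.73 in MRL day 0 noninfarct to 10.86 in C57 day 5 infarct, with healthy C57 tissue at 8.61 and 8.81 and MRL day 5 noninfarct at 8.60. For H2-Aa the MRL day 5 infarct, at 8.78, came next to C57 day 5 noninfarct, at 8.71, and healthy C57 tissue, at 7.88 and 8.09, stood above MRL day 5 noninfarct, at 7.25. Most neighbours in the order overlapped: 11 of 11 neighbouring pairs for H2-Ab1 and 10 of 11 for each of H2-Aa, H2-Eb1 and Cd74. The pair without overlap was the step to C57 day 5 infarct for H2-Aa and H2-Eb1, and the step from C57 day 1 noninfarct to MRL day 5 noninfarct for Cd74. The order and the overlaps include the 2 libraries that go against their labels, in MRL day 5 infarct and C57 day 5 noninfarct. The first of these held the lowest H2-Aa value of its group, 7.82. The places of these groups in the order were not tested without the 2 libraries.

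The 4 genes followed each other closely. Their group means correlated with Pearson r of 0.92 to 0.98 over the 12 groups, and the deviations of single arrays from their group means with r of 0.58 to 0.89 over the 46 arrays, values that share the arrays and their normalization. There were 7760 tested genes, and class II members were left out of the ranking. The group means most like the mean of the 4 genes were those of Trim30a, Pycard and Parp14 (r = 0.97 each) and Itga6 and Tmem184b (r = 0.96 each). Within groups, the arrays' deviations were most like those of C1qa (r = 0.76), Csf1r (r = 0.74) and Eef1a1, Ctss and Ctsc (r = 0.72 each). All these correlations include the 2 libraries that go against their labels, whose part in r was not tested. C1qa encodes a chain of complement C1q and Csf1r the receptor for macrophage colony-stimulating factor, both made by macrophages, and Ctss and Ctsc are lysosomal cysteine proteases.

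Among the other genes of the class II pathway no difference between the strains was called. Of 27 listed symbols, which include older and newer names of the same gene, 19 were on the array and 13 tested. In the 6 comparisons of the strains 0 of 13 were called (limma, with 0, 2 and 1 of 13 at an unadjusted p under 0.05 in infarct tissue on days 0, 1 and 5 and 1, 4 and 2 in noninfarct tissue). In infarct tissue on day 5, 1 of 13 was called without the 2 libraries, against 2.42% of probe sets: Rfxank, a subunit of RFX, was higher in MRL (1.04, adjusted p = 0.045). The median difference at day 0 was -0.10 in infarct-site and -0.06 in noninfarct tissue, against -2.13 and -2.28 for the chains and Cd74. H2-Ea, the alpha chain of the E molecule, which b haplotype mice do not express, is annotated as a transcribed pseudogene in this C57BL/6J reference. Its probe set 1422891_at had 5.44, 5.32, 5.21 and 5.30 in MRL and 6.07, 5.46 and 5.48 in C57 infarct-site tissue at day 0, and was called between the strains at no time (differences of -0.70 to 0.18). What this probe set measures was not tested, and its signal in C57 is not taken as H2-Ea transcript.

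By day 5 in the infarct, 7 of 13 tested pathway genes had risen and 0 fallen in MRL, and 7 had risen and 3 fallen in C57, with medians of 1.01 and 1.02. Over all probe sets 46.9% were called in MRL and 42.7% in C57, and 23.6% and 23.4% were called higher. Ctss, the cathepsin that cuts the invariant chain, rose by 5.56 in MRL and 5.45 in C57. Ifi30, a lysosomal thiol reductase, rose by 3.93 in MRL and 4.15 in C57, Lgmn, an asparaginyl endopeptidase, by 3.12 and 3.58, and Ctsb, a cathepsin, by 1.84 and 1.97. The counts were the same without the 2 libraries, and the MRL rises were 6.25 for Ctss, 4.45 for Ifi30, 3.83 for Lgmn and 2.20 for Ctsb. The C57 falls were Rfxank (-1.05), Nfyc (-0.55), a subunit of NF-Y, and the H2-Ea probe set (-0.93), whose signal in C57 is not taken as H2-Ea transcript. On day 1, Ctss (2.66, adjusted p = 0.0035) and Ifi30 (2.26, adjusted p = 0.0094) had risen in MRL infarcts, and in C57 infarcts the 1 call was Nfyc, which fell (-0.68, adjusted p = 0.036), so that 2 and 1 of 13 stand against 21.5% and 15.5% of probe sets. In noninfarct tissue by day 5, 7 of 13 had risen in MRL, against 24.2% of probe sets, and 5 in C57, against 21.1%, among them Ctss by 4.61 in MRL and 3.66 in C57. With the 2 libraries left out, 7 had risen and the H2-Ea probe set had fallen (-0.57, adjusted p = 0.046) in MRL, against 34.7%. In C57 5 had then risen, against 10.1%, with Ctss at 3.03 there. In noninfarct tissue on day 1, 0 of 13 were called in MRL and in C57 (limma, 2 and 0 at an unadjusted p under 0.05). In the test of strain by infarction 0 of the 13 were called (limma, 0 at an unadjusted p under 0.05 in each of the 4 comparisons).

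Interferon gamma signalling, the classical inducer of class II genes, was represented by 11 tested genes of 16 listed. In healthy tissue 0 of 11 differed between the strains (limma, 0 at an unadjusted p under 0.05 in either region). On day 5 in the infarct Cxcl10, an interferon-induced chemokine, was lower in MRL (-1.35 ± 0.21, adjusted p = 0.0015, and -1.38 without the 2 libraries), the 1 call among the 11. On day 1 in noninfarct tissue Gbp3, an interferon-induced guanylate-binding protein, was higher in MRL (1.99 ± 0.21, adjusted p = 1e-05), where it had fallen in C57 (-2.22, adjusted p = 1e-05), and the difference of the changes was called (2.31 ± 0.31, adjusted p = 0.0044). After infarction 1 of 11 rose and 1 fell in MRL infarcts on day 1, against 21.5% of probe sets called, and 2 rose and 1 fell in C57 infarcts, against 15.5%. In noninfarct tissue on day 1, 0 were called in MRL (limma, 1 at an unadjusted p under 0.05) and 2 fell in C57, Gbp3 and Ifngr2 (-1.23, adjusted p = 0.0055). The shares of all probe sets called were 0.98% in MRL and 3.99% in C57. By day 5, 3 had risen and 1 fallen in MRL infarcts, against 46.9% of probe sets called, and 4 had risen and 1 fallen in C57 infarcts, against 42.7%. In noninfarct tissue 2 had risen by day 5 in MRL, against 24.2%, and 2 had risen and 1 fallen in C57, against 21.1%. These day 5 counts without the 2 libraries were 4 higher and 1 lower in MRL infarcts, 4 and 1 in C57 infarcts, 3 and 1 in MRL noninfarct tissue, and 2 and 0 in C57 noninfarct tissue. The shares of all probe sets called were then 52.6%, 45.7%, 34.7% and 10.1% in that order. By day 5 in the infarct Irf8, a transcription factor of myeloid cells, rose by 3.19 in MRL and 3.46 in C57, and Ifngr2, a chain of the interferon gamma receptor, fell by 1.06 on the log2 scale in MRL and by 1.13 in C57. In MRL infarcts without the 2 libraries, Irf8 rose by 4.07 and Ifngr2 fell by 1.29.

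Class I genes separated the strains in a way that depended on the probe set. H2-D1 (1425545_x_at) was lower in MRL in all 6 comparisons (-3.73 to -4.56) and H2-K1 (1451931_x_at), another class I heavy chain, likewise (-2.46 to -3.57), whereas H2-D1 (1450170_x_at) averaged 8.02 in MRL and 4.96 in C57 infarct-site tissue at day 0. Probe sets of 1 gene thus gave opposite directions between strains whose class I sequences differ. The day 5 differences without the 2 libraries were -5.09 in infarct and -4.72 in noninfarct tissue for H2-D1 (1425545_x_at) and -4.49 and -3.78 for H2-K1. Of the 7 class I genes tested in infarct and the 6 in noninfarct tissue, the other strain calls were Tap2, a peptide transporter chain, higher in MRL infarcts on day 1 (0.83, adjusted p = 0.047), and B2m. By day 5 in the infarct 5 of 7 had risen in MRL, against 46.9% of probe sets, and 6 in C57, against 42.7%, with the same counts without the 2 libraries, although the rise of H2-D1 in MRL was then 1.10, against 2.00 with them. In noninfarct tissue 2 of 6 had risen by day 5 in MRL, against 24.2% of probe sets, and 0 in C57 (limma, 1 at an unadjusted p under 0.05), against 21.1%. Without the 2 libraries 3 had risen in MRL, against 34.7%, and 2 in C57, against 10.1%. Against day 0 the 1 call on day 1 was Tap2, which fell in C57 infarcts (-0.92, adjusted p = 0.0058). B2m, the invariant light chain of class I molecules, was lower in MRL noninfarct tissue at day 0 (-1.03 ± 0.26, adjusted p = 0.04).

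Markers of macrophages and of leukocytes in general also rose after infarction. Of 15 tested macrophage markers 14 rose by day 5 in the infarct of each strain (median log2 changes of 2.95 in MRL and 3.08 in C57), where 46.9% of probe sets were called in MRL and 42.7% in C57. In noninfarct tissue 12 rose in MRL, against 24.2%, and 13 in C57, against 21.1% (medians of 1.71 and 1.98). In C57 noninfarct tissue these 13 and all 3 general leukocyte markers were called higher by day 5. There 0 of 4 class II genes were called, with changes of 0.49 to 0.79, and no test compared the markers with the class II genes. The library labelled C57 day 5 noninfarct replicate 3 held a general leukocyte sum of 2650, against 378 to 1150 in the rest of its group. With the 2 libraries left out, 14 of 15 macrophage markers rose in the infarct of each strain, against 52.6% of probe sets in MRL and 45.7% in C57. In noninfarct tissue 12 of 14 then rose in MRL, against 34.7%, and 9 of 14 in C57, against 10.1%.

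On day 1, 7 macrophage markers had risen in MRL infarcts, against 21.5% of probe sets (Lgals3 by 6.00, Cd14 by 4.46, Cd52 by 2.53 and Cd68 by 2.31 the largest). In C57 infarcts 3 of 15 had risen (Cd14 by 5.45, Lgals3 by 5.16 and Cd52 by 2.64), a share close to the 15.5% of all probe sets. The difference of the changes was called for 0 of the 15 (limma, 0 at an unadjusted p under 0.05). All 3 general leukocyte markers rose by day 1 in the infarct of both strains, with medians of 3.55 in MRL and 2.17 in C57, where 2 of 4 class II genes were called in MRL and 0 in C57. In noninfarct tissue on day 1, where H2-Eb1 fell in C57, no macrophage marker was called in MRL or C57 (limma, 1 and 3 of 15 at an unadjusted p under 0.05), and their sum was 1190 to 1950 in MRL and 1130 to 1880 in C57.

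The summed intensity in infarct tissue on day 5 was 4570 to 34900 in MRL and 13100 to 26600 in C57 for macrophage markers, and 808 to 3190 in MRL and 2680 to 5400 in C57 for the class II genes. The lowest MRL values are those of replicate 3, which goes against its strain label, and the other 3 MRL libraries held 28000 to 34900 for macrophage markers and 1980 to 3190 for class II genes. Without that library the macrophage sums of MRL lay above all C57 sums, while the class II sums overlapped. In noninfarct tissue on day 5 the macrophage sums were 8120 to 10300 in MRL and 3290 to 25300 in C57, where the highest is replicate 3, which goes against its label, and the other 3 held 3290 to 9910. Between the strains 0 of 15 macrophage markers were called on days 1 and 5 (limma, 0 and 1 at an unadjusted p under 0.05 in infarct and 1 and 3 in noninfarct tissue). The part of these cells in the class II changes was not tested.

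Neutrophil markers, 3 of which were tested, rose in all 4 day 1 comparisons with day 0, with medians of 6.65 in MRL and 7.63 in C57 infarcts and 3.50 in MRL and 4.70 in C57 noninfarct tissue. The shares of all probe sets called were 21.5%, 15.5%, 0.98% and 3.99% in that order. By day 5, 2 of 3 were still higher than at day 0 in MRL infarcts and 3 in C57 infarcts. The 5 fibroblast markers all rose by day 5 in the infarct of both strains (medians of 1.38 in MRL and 1.56 in C57), and 4 did so in noninfarct tissue of each (without the 2 libraries 4 in MRL and 3 in C57). Of 8 ventricular cardiomyocyte markers, the check of the labelled tissue, 8 fell by day 5 in MRL infarcts (median -1.31) and 7 in C57 infarcts (-1.20), and 8 in each without the 2 libraries. In noninfarct tissue 0 of 8 fell in MRL (limma, 1 at an unadjusted p under 0.05) and 2 in C57, and 4 and 0 without the 2 libraries. Their summed intensity in the infarct was 166000 to 184000 in MRL and 176000 to 186000 in C57 at day 0, and 46700 to 161000 in MRL and 68400 to 144000 in C57 on day 5, where the highest MRL value is replicate 3 and the other 3 held 46700 to 77900. Of 7 endothelial markers 1 rose and 1 fell in MRL infarcts and 2 fell in C57 infarcts by day 5. The day 5 marker counts stand against 46.9% of probe sets called in MRL and 42.7% in C57 infarcts. In noninfarct tissue the shares were 24.2% in MRL and 21.1% in C57. Without the 2 libraries they were 52.6%, 45.7%, 34.7% and 10.1% in that order. The part of the tissue's makeup in the class II changes was not tested.

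Defining markers of the other cells that present antigen were mostly below the array median. Of 11 dendritic cell markers on the array, Flt3, Ccr7, Ccl22, Irf4, Cd209a, Batf3, Xcr1 and Ccl17 lay above it in 0 arrays, Itgax in 3, Zbtb46 in 15 and Fscn1, which is not confined to dendritic cells, in 46. By day 5 in the infarct Fscn1 rose by 2.74 in MRL and 2.04 in C57, Itgax rose by 1.83 in C57, and Zbtb46 fell in MRL (-0.75, adjusted p = 0.0053). Of the 7 B lymphocyte markers, Cd22, Pax5 and Blk lay above the median in 0 arrays, Cd79a and Cd79b in 1, Blnk in 7 and Ms4a1 in 37. Blnk, an adaptor of B cell receptor signalling, was tested in infarct tissue and rose by day 5, by 3.30 in MRL (adjusted p = 0.00091) and 2.99 in C57 (adjusted p = 0.0042), and by 4.41 in MRL without the 2 libraries, while Ms4a1 was not called. Of the 7 T lymphocyte markers, Cd8a, Cd3g, Cd3e, Cd5 and Cd3d lay above it in 0 arrays, Cd4 in 12 and Cd247 in 39, and of the 2 tested 0 rose by day 5, while Cd4 fell in MRL (-0.41 in infarct, adjusted p = 0.042, and -0.44 in noninfarct tissue, adjusted p = 0.023) and was not called in infarct tissue without the 2 libraries. The summed B lymphocyte markers in the infarct were 48.7 to 56.1 in MRL and 50.2 to 64.3 in C57 at day 0, and 45.4 to 131 in MRL and 52 to 195 in C57 on day 5 (111 to 131 in MRL without replicate 3). The atrial markers Myl7, Sln and Myl4 summed to 809 to 2090 in MRL and 380 to 1420 in C57 noninfarct tissue at day 0.

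**Figure D5:**
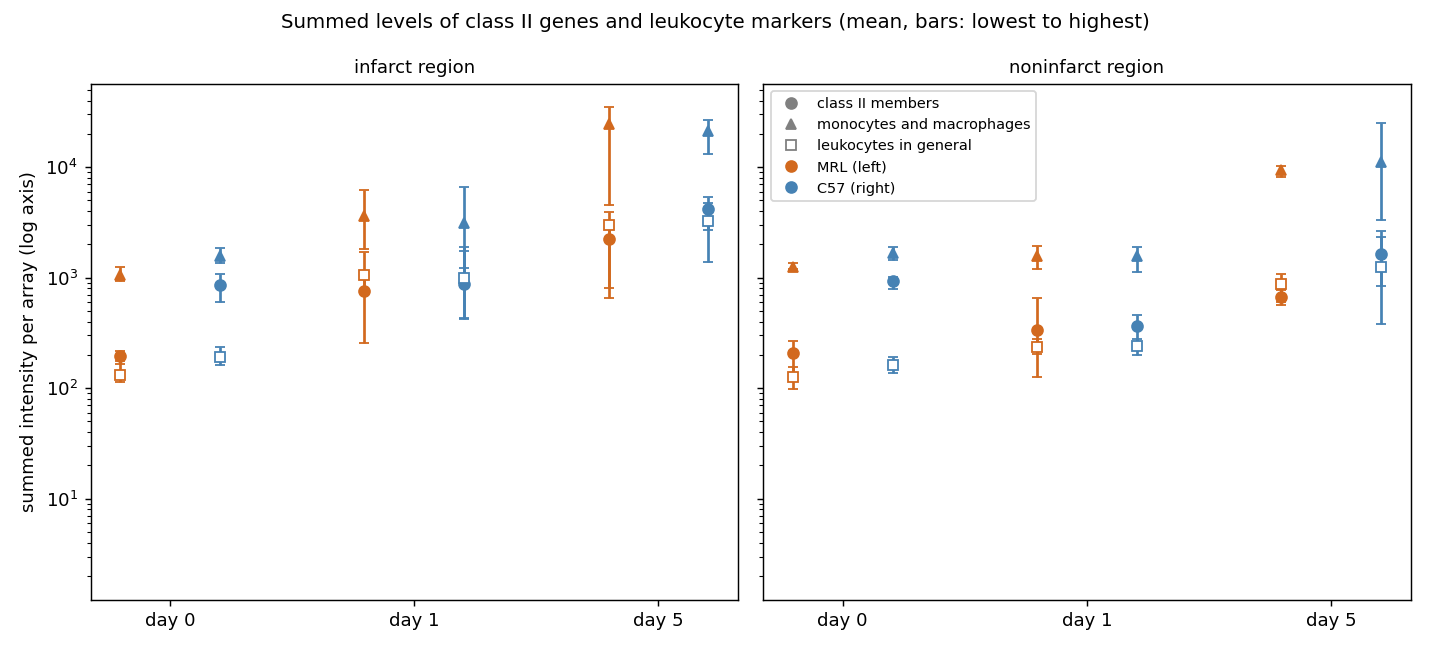
Summed intensity per array on a log axis, by day, region and strain (MRL in orange left of C57 in blue), for the class II genes (circles), monocyte and macrophage markers (triangles) and general leukocyte markers (open squares), as mean with bars from the lowest to the highest array. The class II sums of MRL and C57 do not overlap at day 0 in either region and overlap on day 1.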

How the data were processed

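Total RNA of 46 heart samples was hybridised to 1-colour Affymetrix MOE430A arrays. The deposited values are linear intensity values per probe set that the authors background-corrected, normalised and summarised. Per the submitters' processing notes the method was GCRMA (no version given). The number of arrays limits the precision, and GCRMA's background model sets the size of folds near background. From these values log2 was taken with no pseudocount (smallest value 1.03). Of 22690 probe sets, 64 controls were left out, and genes were named by the platform annotation from probe sets with 1 symbol (691 had several, 1555 none). Array medians were 18.6 to 22.3.

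limma 3.58.1 under R 4.3.3 fitted 1 mean per group (two-sided moderated test, Benjamini-Hochberg over all tested probe sets), on the 23 arrays of a region, or on all 46 for differences between regions, in 28 comparisons. A call is an adjusted p under 0.05. The tests were checked on simulated data. P-values measure the spread between these samples. The members, the gene lists and the 2 libraries left out in alternatives were chosen with earlier results of these data known. All members are described. Counts of calls are given for the main comparisons of each list, with up to 4 called genes of largest change, and genes outside this rule (H2-Ea, Rfxank, Nfyc, H2-D1 1450170_x_at, Tap2) were chosen after their values were seen, as was the choice to count the lists also without the 2 libraries. Same-numbered samples deviated together in every pair (r over 0.1) in 2 comparisons, between regions in C57 at day 0 (0.23 to 0.43) and in MRL at day 1 (0.34 to 0.56), and the labels state no pairing.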

Additional observations from a re-analysis of the deposited data

Results flagged for a closer look

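Of 100 combinations of a class II probe set and a group of 4 arrays, 10 held an array whose gap to its nearest neighbour exceeded Dixon's critical share of the group's range for 4 samples, where chance gives about 1 in 20. H2-Aa (1435290_x_at) was lowest in MRL day 1 infarct replicate 3, at 4.02, against 6.85 to 7.42 in the other libraries of its group, and Cd74 was lowest in the same library, at 7.44. H2-Aa (1452431_s_at) was lowest in MRL day 0 noninfarct replicate 4 (3.06, others 4.57 to 4.87) and in C57 day 1 noninfarct replicate 1 (3.76, others 4.38 to 4.43). The remaining values belong to probe sets that were not tested and lay mostly below the array median. H2-Ab1 (1425477_x_at) was lowest in MRL day 0 infarct replicate 4 (2.17, others 2.34 to 2.37) and highest in MRL day 1 infarct replicate 2 (2.80, others 2.33 to 2.41), C57 day 1 infarct replicate 3 (3.90, others 2.35 to 2.55) and MRL day 5 infarct replicate 1 (4.39, others 2.35 to 2.40). H2-DMa (1422527_at) was lowest in MRL day 0 infarct replicate 1 (1.81, others 1.84 to 1.85) and highest in the library labelled C57 day 5 noninfarct replicate 3 (3.12, others 1.81 to 1.87), which goes against its strain label. Ciita (1421211_a_at) was lowest in MRL day 0 infarct replicate 1 (3.24, others 3.25).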

How the results depend on the processing

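Of 104 results for single class II genes 40 were called, and none of the 40 changed direction under any alternative run. The larger moves in the counts of class II genes called (of 4) follow, and the cause was not tested unless named. Smaller moves included these. With no filter, 2 were called between the strains in noninfarct tissue at day 0 and 3 from day 1 to day 5 in MRL infarcts. With array weights H2-Ab1 was also called between the strains in noninfarct tissue at day 0 (-1.18, adjusted p = 0.003). With the offset of 32 H2-Aa was called between regions on day 5 in MRL (1.36, adjusted p = 0.024) and in C57 (1.42, 0.031). With log2(intensity + 32), 1 gene was called between the strains in infarct tissue at day 0, 1 at day 5, and 2 on day 1 against day 0 in C57 noninfarct tissue. With array weights, which give outlying arrays less weight, 4 were called between the strains in infarct tissue at day 0 and 1 at day 5, 4 on day 1 against day 0 in MRL infarcts, 2 in C57 noninfarct tissue, 1 in each of the strain-by-infarction tests of infarct day 1 (Cd74, 2.39, adjusted p = 0.047), infarct day 5 (H2-Aa, 2.57, 0.04) and noninfarct day 1 (H2-Eb1, 2.45, 0.046), and 1 between regions in C57 at day 1. With the mean of a gene's probe sets, 1 was called between the strains in infarct tissue at day 0, 1 on day 1 in MRL infarcts and 2 from day 1 to day 5 in MRL noninfarct tissue. With no filter, where more probe sets are tested, 5 were called on day 5 in C57 infarcts against day 0 and against day 1, with H2-DMa, 1 was called between the strains in noninfarct tissue at day 5, 0 from day 1 to day 5 in MRL noninfarct tissue (0 with quantile normalization too) and 0 between regions in MRL at day 1. With all 46 arrays in one fit, 2 were called between the strains in infarct and 1 in noninfarct tissue at day 5. With only the 2 groups compared, where fewer arrays set the spread, 0 were called between regions in MRL at days 1 and 5 and in C57 at day 5. Without the 2 libraries that go against their labels, 3 were called from day 1 to day 5 in MRL noninfarct tissue and 1 between regions in C57 at day 1, and also 3 and 1 without C57 day 5 infarct replicate 1 as well.

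With each library left out in turn, counts ranged from 1 to 2 between the strains in infarct tissue at day 0, 0 to 1 at day 5, 2 to 3 in noninfarct tissue at day 0 and 1 to 2 at day 5. They ranged from 1 to 3 on day 1 and 2 to 4 from day 1 to day 5 in MRL infarcts, 0 to 3 from day 1 to day 5 in MRL noninfarct tissue, and 0 to 1 on day 1 and 0 to 1 on day 5 against day 0 in C57 noninfarct tissue. Between regions they ranged from 0 to 2 in MRL at day 1, 1 to 4 in MRL at day 5, 0 to 2 in C57 at day 1 and 0 to 3 in C57 at day 5. The counts of day 5 against day 0 stayed at 4 in both strains' infarcts and at 3 in MRL noninfarct tissue.

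Differences near 0, none of them called, changed direction. The Cd74 strain difference of day 1 ran from -0.09 to 0.67 with libraries left out in infarct tissue and from -0.67 to 0.23 in noninfarct tissue (0.27 with array weights). The day 1 change in C57 infarcts was -0.04 for Cd74 with quantile normalization and with median centring and ran from -0.36 to 0.29 with libraries left out, and for H2-Ab1 from -0.23 to 0.53. H2-Ab1 in MRL noninfarct tissue changed on day 1 by 0.10 with array weights and 0.06 with the mean of probe sets, and from -0.28 to 0.07 with libraries left out. The day 5 strain-by-infarction difference of H2-Ab1 was 0.32 with array weights and 0.16 without the 2 libraries and ran from -0.49 to 0.16 with libraries left out in infarct tissue and from -0.42 to 0.14 in noninfarct tissue, and that of H2-Eb1 in infarct tissue was -0.04 with the offset of 32. Quantile normalization moved the median of all probe sets by -0.14 for day 5 against day 0 in C57 infarcts.

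With the replicate number as a block, 2 genes were called on day 1 in C57 noninfarct tissue, 2 between regions in C57 at day 1 and 4 at day 5, the day 1 change of Cd74 in C57 infarcts was -0.08 and the day 5 strain-by-infarction difference of H2-Ab1 in infarct tissue 0.04. The block also called H2-Ab1 between the strains in noninfarct tissue at day 0 (-1.23, adjusted p = 0.032) and H2-Aa between regions in MRL at day 5 (1.53, adjusted p = 0.01). Cd74 was no longer called from day 1 to day 5 in MRL infarcts (1.37, adjusted p = 0.059). None of the comparisons named here is among the 2 where same-numbered samples deviated together in every pair. No other count moved, and in those 2 comparisons the block changed no call. Genes near or below the array median (H2-DMa, Ciita, and H2-Aa and H2-Eb1 in healthy MRL tissue) have the least exact values.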
